A study of Homo sapiens with 6 samples.

Results

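Kinesins are motor proteins that hydrolyse ATP to walk along microtubules or to take them apart. In dividing cells a set of them builds the mitotic spindle, moves chromosomes and completes cytokinesis, while others carry vesicles, mitochondria and messenger RNA along the microtubules of the resting cell or serve the cilium. Messenger RNAs of the spindle motors are known to be made mainly in the G2 and M phases of the cell cycle, whereas those of most transport motors are not tied to a phase. The kinesin genes described here are the symbols that begin with KIF followed by a digit, antisense symbols left out, that were listed in at least 1 library: 35 of the 17787 symbols listed in the series. By known role, but with earlier results of these data known, 13 were placed in a spindle class and 13 in a cargo transport class. The other 9 formed a class of cilium and other kinesins.

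RNA was sequenced from A549, a human lung adenocarcinoma cell line, in 3 libraries labelled siFOXD3, after the small interfering RNA against the forkhead transcription factor FOXD3, and in 3 libraries labelled siNC with the genotype label wild type. siNC is not spelled out in the labels and served as the control. All 6 libraries come from the same line. Neither the dose and time of the knockdown nor the siRNA sequences appear in the sources used here. Nothing in the labels says that replicates were cultured separately, so the p-values below rest on a spread between samples that may be only technical.

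The values are FPKM, fragments scaled to transcript length and to the mapped fragments of the library, so levels can be compared between genes. The steps between low values put depth at an estimated 8000000 to 8500000 fragments in siFOXD3 and 7900000 to 8100000 in siNC. FOXD3 itself had 0.0749 FPKM in siFOXD3 replicate 2 and no entry in the other siFOXD3 libraries, against 0.152, 0.291 and 0.134 FPKM in siNC, near the detection limit throughout. The extraction protocol in the labels speaks of retina, but all 5 markers of an epithelial carcinoma line (KRT8, KRT18, KRT19, EPCAM, CDH1) exceeded 1 FPKM, with a summed level of 7215 to 7277 FPKM in siFOXD3 and 5051 to 6021 FPKM in siNC. Of 10 photoreceptor markers, SAG, RCVRN and GNAT1 were listed nowhere. ROM1 exceeded 1 FPKM in siFOXD3 alone, at 1.59 to 2.23 FPKM, against 0.927 to 0.946 FPKM in siNC. The whole photoreceptor list summed to 2.41 to 3.23 FPKM in siFOXD3 and 1.68 to 2.06 FPKM in siNC. Leukocyte markers summed to 1.59 to 2.19 FPKM in siFOXD3 and 4.87 to 6.16 FPKM in siNC. Of these, CD14 exceeded 1 FPKM in both groups and LAPTM5 in siNC alone, and both were lower in siFOXD3. Fibroblast markers, with DCN and LUM listed nowhere, summed to 2.94 to 3.48 FPKM in siFOXD3 and 3.57 to 4.49 FPKM in siNC. Nearly all of the fibroblast sum was COL1A1. Neuron markers, without STMN2, summed to 8.19 to 8.99 FPKM in siFOXD3 and 10.5 to 12.5 FPKM in siNC, nearly all of it MAP2.

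The spindle motors rose together in siFOXD3. The transport motors moved in both directions, as genes in general did, with a median close to that of all genes tested. Of the 12 spindle kinesins that passed the filter on low values (at least 1 FPKM in at least 3 libraries), 11 rose and KIF2A was not called, at a Benjamini-Hochberg adjusted p under 0.05 in a limma fit of log2(FPKM + 1) across 12555 genes. Over all genes tested 65.9% were called, 27.2% higher and 38.7% lower. Of the 9 cargo transport kinesins tested, 3 rose, 2 fell and 4 were not called, and of the 5 cilium and other kinesins tested, 3 rose and 2 fell. KIF27, among these falls, passed the filter through siNC alone, so its direction was fixed by the filter. The median log2 fold change, siFOXD3 over siNC, was 0.84 for the spindle class, -0.07 for the cargo transport class, 0.42 for the cilium and other class and -0.08 for all genes tested. Against a minimum fold of 1.2 (limma's treat test), 11 spindle kinesins were called higher and 0 lower, with 12.9% of all genes called higher. By that test the cargo class had 1 higher and 1 lower, where 21.3% of all genes were called lower. The balance of the background moved with the scaling, to 35.3% higher and 31.2% lower with median-of-ratios scaling and to 33.9% higher and 30.5% lower with quantile normalization, and either scaling took the median of all genes to 0.03 and that of the cargo class above 0 (0.05 and 0.04). Since RNA was taken from whole cultures, a larger share of cells in the G2 and M phases and more message per cell cannot be told apart.

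**Figure D1:**
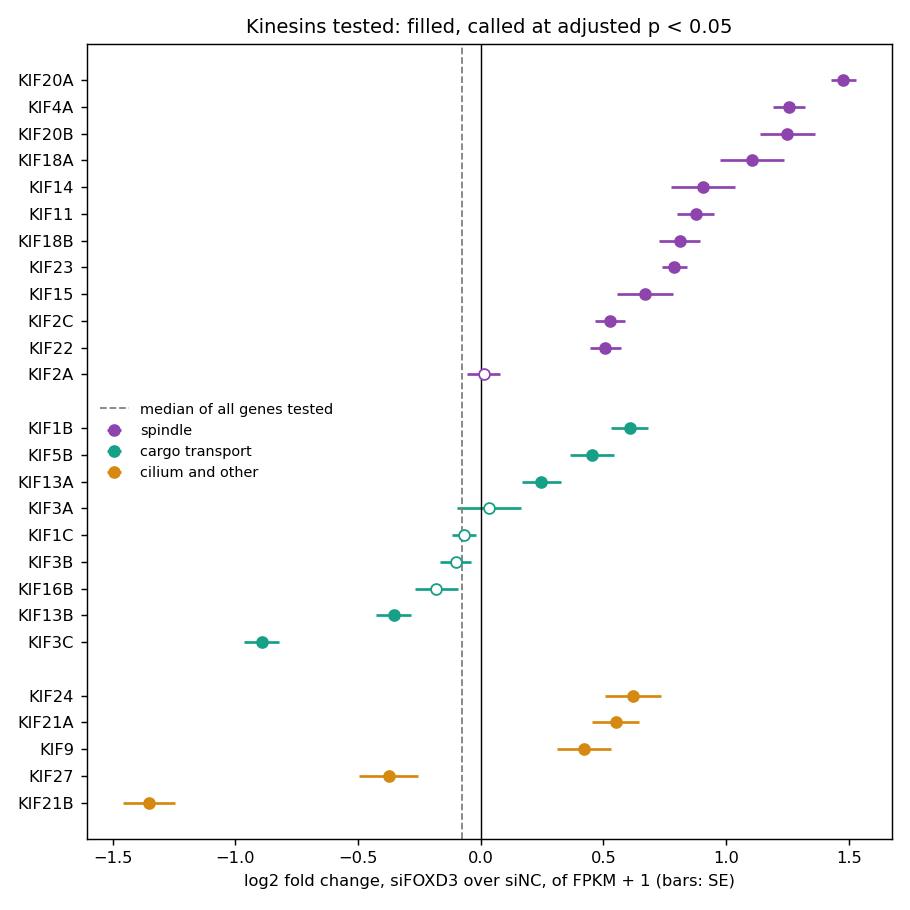
Log2 fold change of FPKM + 1, siFOXD3 over siNC, for the 26 kinesins that passed the filter, ordered by class; bars are standard errors, filled points were called by limma at an adjusted p under 0.05, and the dashed line is the median of all genes tested (-0.08). The spindle class runs from 0.01 (KIF2A) to 1.48 (KIF20A), the cargo transport class from -0.89 (KIF3C) to 0.61 (KIF1B).

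Summed over each class, the same contrast appeared in every library. The spindle kinesins summed to 306.8, 302.0 and 296.4 FPKM in siFOXD3 replicates 1 to 3, against 160.9, 169.9 and 166.5 FPKM in siNC. Cargo transport kinesins summed to 139.7, 137.5 and 138.0 FPKM in siFOXD3 and to 136.6, 143.5 and 140.0 FPKM in siNC. The spindle sums did not overlap between the groups and the cargo sums did. The ratio of the group means was 1.82 for the spindle class and 0.989 for the cargo class, and 0.992 for the cilium and other class. The share of all kinesin FPKM that belonged to spindle motors, which does not depend on the scaling of a library as a whole, was 66.4% ± 0.246 in siFOXD3 and 51.8% ± 0.0700 in siNC (mean ± SD, n = 3 each).

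**Figure D2:**
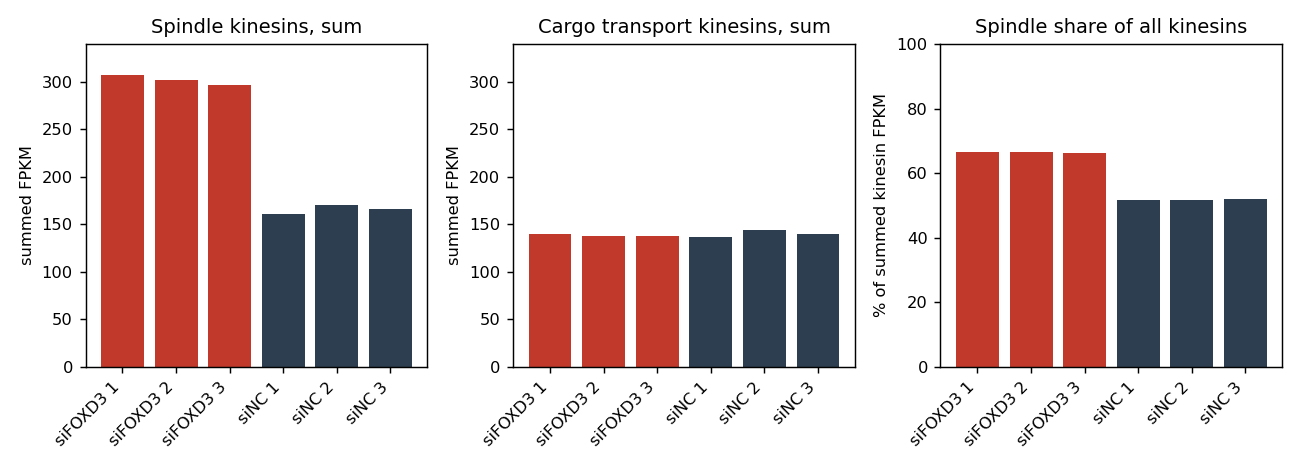
Summed FPKM of the 13 spindle and the 13 cargo transport kinesins, and the spindle share of the summed FPKM of all 35 kinesins, with 1 bar per library. Spindle sums are 296 to 307 FPKM in siFOXD3 and 161 to 170 FPKM in siNC, whereas cargo sums overlap.

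The plus-end-directed motors that push the spindle poles apart were higher in siFOXD3. KIF11 (Eg5), the tetrameric motor that slides antiparallel microtubules, had 27.4, 25.7 and 27.5 FPKM in siFOXD3 replicates 1 to 3, against 13.0, 15.8 and 13.9 FPKM in siNC. KIF15, which can share this work with KIF11, had 9.73, 9.63 and 9.61 FPKM in siFOXD3, against 4.50, 6.41 and 6.38 FPKM in siNC. Both groups of values lay apart for each motor, and KIF15 was the tighter in siFOXD3. The log2 fold change was 0.88 ± 0.07 for KIF11 (SE, limma, adjusted p = 4e-06) and 0.67 ± 0.11 for KIF15 (SE, limma, adjusted p = 0.000433).

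Both chromokinesins, which bind chromosome arms and move them towards the spindle equator, rose. KIF4A, which also organises the central spindle with PRC1, had 22.3, 22.7 and 21.1 FPKM in siFOXD3, against 8.95, 8.66 and 8.27 FPKM in siNC. KIF22 (Kid), the motor of the polar ejection force, had 29.4, 28.0 and 26.9 FPKM in siFOXD3, against 20.6, 19.3 and 18.5 FPKM in siNC. The difference was the larger for KIF4A, with a ratio of means of 2.55 and a log2 fold change of 1.26 ± 0.06 (SE, limma, adjusted p = 1.59e-07), than for KIF22, with 1.44 and 0.51 ± 0.06 (SE, limma, adjusted p = 5.04e-05). KIF4B, a near copy of KIF4A, was listed at 0.0250 and 0.0241 FPKM in siFOXD3 replicates 2 and 3 and at 3.7e-05 FPKM in siNC replicate 1, and in no other library. A count of 3 fragments at the estimated depth would be 0.0835 to 0.0898 FPKM for KIF4B, so it was below what these libraries can measure, and any KIF4B reads may have been given to KIF4A. Such limits cover counting error only.

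The motors that shorten microtubule ends split. KIF18A, which damps chromosome oscillations at the metaphase plate, had 14.8, 15.7 and 15.0 FPKM in siFOXD3, against 4.83, 7.47 and 7.53 FPKM in siNC. KIF18B, which trims astral microtubules, had 13.8, 15.0 and 12.3 FPKM in siFOXD3, against 7.40, 7.60 and 7.04 FPKM in siNC. The depolymerase of the centromere, KIF2C (MCAK), had 50.9, 47.0 and 44.7 FPKM in siFOXD3, against 34.2, 31.2 and 32.7 FPKM in siNC. All of these siFOXD3 values lay above the siNC values of the same gene, with log2 fold changes of 1.11 ± 0.13, 0.81 ± 0.08 and 0.53 ± 0.06 in that order (SE, limma, largest adjusted p = 3.8e-05). KIF2A, the related depolymerase of spindle poles that also works in cells that do not divide, had 19.9, 19.9 and 21.0 FPKM in siFOXD3, against 18.6, 20.2 and 21.6 FPKM in siNC. These values overlapped, and the log2 fold change of KIF2A was 0.01 ± 0.07 (SE, limma, adjusted p = 0.893).

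The motors of the midzone and of cytokinesis all rose, and KIF20A had the highest log2 fold change of the spindle class. KIF20A (MKLP2), which brings the chromosomal passenger complex to the midzone, had 57.7, 60.4 and 57.3 FPKM in siFOXD3, against 20.8, 20.3 and 19.9 FPKM in siNC. Its log2 fold change was 1.48 ± 0.05 (SE, limma, adjusted p = 1.98e-08). KIF20B, a relative that acts late in cytokinesis, had 14.6, 13.7 and 15.8 FPKM in siFOXD3, against 4.53, 6.66 and 5.75 FPKM in siNC. KIF23 (MKLP1), the motor subunit of centralspindlin, had 35.3, 34.2 and 34.2 FPKM in siFOXD3, against 19.5, 19.8 and 19.4 FPKM in siNC. KIF14, which holds citron kinase at the midbody, had 11.0, 10.3 and 10.9 FPKM in siFOXD3, against 4.03, 6.58 and 5.43 FPKM in siNC. For each of these cytokinesis motors the lowest siFOXD3 library was above the highest siNC library. KIF20B, KIF14 and KIF23 had log2 fold changes of 1.25 ± 0.11, 0.91 ± 0.13 and 0.79 ± 0.05 in that order (SE, limma, largest adjusted p = 0.00014). KIF20A overlaps CDC23 in RefSeq, as KIF15 does TMEM42, KIF2A does DIMT1 and KIF24 does UBAP1 and NUDT2, and with strand handling not stated, reads of these neighbours may be mixed.

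**Figure D3:**
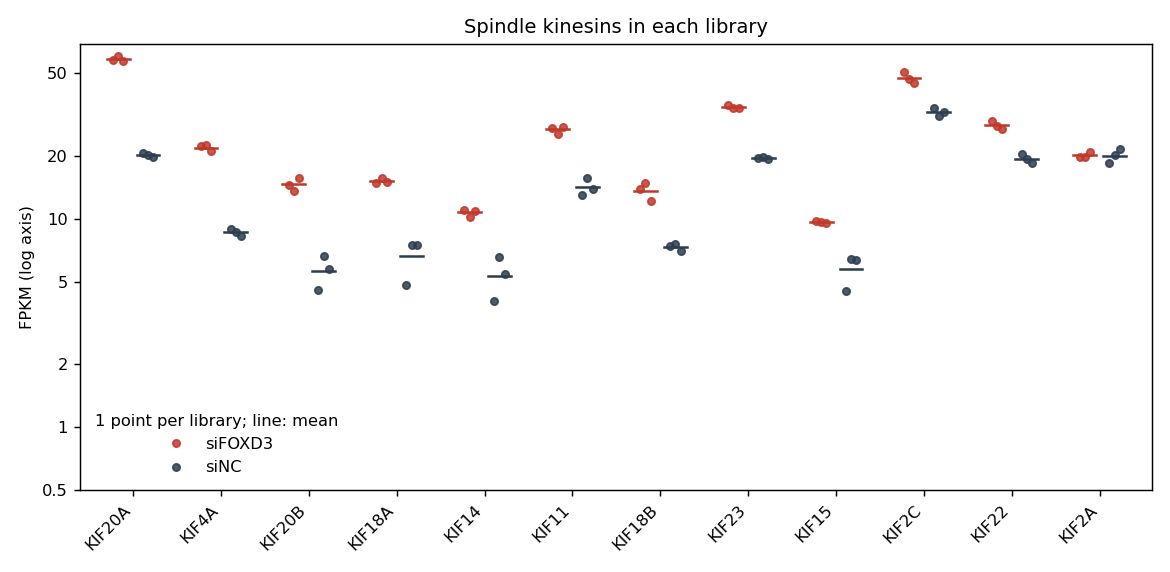
FPKM (log axis) of the 12 spindle kinesins that passed the filter, with 1 point per library and the mean as a line, siFOXD3 left of siNC for each gene and genes ordered by log2 fold change. The groups lie apart for all except KIF2A, where 70.7% of all genes tested did not overlap, 29.6% of them being higher in siFOXD3 and 41.1% lower. In siNC, replicate 1 (the leftmost of its 3 points) is the lowest library for KIF20B, KIF18A, KIF14, KIF11, KIF15 and KIF2A.

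The order of levels within the spindle class differed between the groups. In siFOXD3, KIF20A was the most abundant at 58.5 ± 1.68 FPKM, followed by KIF2C at 47.5 ± 3.11, KIF23 at 34.6 ± 0.615 and KIF22 at 28.1 ± 1.26 FPKM (mean ± SD, n = 3). KIF22 and KIF11 overlapped, as did KIF18A, KIF20B and KIF18B, between 12.3 and 15.8 FPKM. In siNC, KIF2C led at 32.7 ± 1.52 FPKM, and KIF20A, KIF2A, KIF23 and KIF22 followed at 20.4, 20.1, 19.6 and 19.5 FPKM. Their values overlapped, except that every KIF20A value lay above those of KIF23. The lowest siNC means were those of KIF15, KIF20B and KIF14, whose values overlapped between 4.03 and 6.66 FPKM. KIF18A, with a higher mean (6.61 FPKM), reached into this range in siNC replicate 1 (4.83 FPKM). KIF2A stood at 20.3 FPKM in siFOXD3, below KIF11 and KIF4A, both of which were below it in siNC.

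At a log2 fold change of 1 or more, 4 spindle kinesins (KIF20A, KIF4A, KIF20B and KIF18A) were called higher, where 1.74% of all genes were. Of the 26 kinesins tested, 17 were higher and 6 lower in siFOXD3 without overlap between the groups, where 70.7% of all genes tested did not overlap, 29.6% higher and 41.1% lower. The 6 lower kinesins include KIF27, whose direction the filter fixed. siNC replicate 1 was the lowest siNC library for 6 of the 12 spindle kinesins and 5 of the 9 cargo kinesins, and for 40.6% of all genes. The median GC content of the transcripts was 41.95% in the spindle class, 47.05% in the cargo class and 49.2% over all tested genes with a matched transcript. Across 11186 such genes, the deviation of siNC replicate 1 from the other siNC libraries had a Spearman correlation of 0.384 with GC content, and the log2 fold change one of -0.17 (a description across genes, which share libraries and are not independent). Without siNC replicate 1, 11 spindle kinesins were called higher with a median of 0.80, and with a correction for GC content, chosen after seeing the data, 11 were called with a median of 0.77.

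Promoter sequences are shown for the 3 spindle motors with the largest log2 fold change and for the cargo motors with the lowest and the highest, because the spindle motors moved together. They are RefSeq windows on GRCh38.p14 from 250 bases before to 50 after a start site, 5′ to 3′ on the gene's strand. Capitals mark letters searched on both strands: the cell cycle genes homology region or CHR (TTTGAA or TTCGAA), an element known from human G2/M promoters, and the CCAAT box (CCAAT, read as ATTGG on the other strand).
KIF20A, chr5:138178862-138179161, plus strand: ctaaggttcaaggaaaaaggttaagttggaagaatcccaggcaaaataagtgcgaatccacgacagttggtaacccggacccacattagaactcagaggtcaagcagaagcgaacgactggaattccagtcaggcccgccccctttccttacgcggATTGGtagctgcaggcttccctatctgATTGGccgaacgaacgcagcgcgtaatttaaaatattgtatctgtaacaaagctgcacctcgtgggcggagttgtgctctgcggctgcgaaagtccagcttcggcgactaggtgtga
KIF4A, chrX:70289854-70290153, plus strand: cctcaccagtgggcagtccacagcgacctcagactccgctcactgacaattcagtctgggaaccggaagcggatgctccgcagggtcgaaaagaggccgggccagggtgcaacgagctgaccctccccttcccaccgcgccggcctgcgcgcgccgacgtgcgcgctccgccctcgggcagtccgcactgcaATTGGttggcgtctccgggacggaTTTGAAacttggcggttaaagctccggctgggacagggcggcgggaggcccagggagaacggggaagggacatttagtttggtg
KIF20B, chr10:89701340-89701639, plus strand: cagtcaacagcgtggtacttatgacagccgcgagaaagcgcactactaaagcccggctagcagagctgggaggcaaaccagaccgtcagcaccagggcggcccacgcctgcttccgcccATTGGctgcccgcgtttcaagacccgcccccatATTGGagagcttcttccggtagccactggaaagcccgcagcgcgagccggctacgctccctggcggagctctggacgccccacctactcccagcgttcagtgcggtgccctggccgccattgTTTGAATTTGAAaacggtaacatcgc
KIF3C, chr2:25982448-25982747, minus strand: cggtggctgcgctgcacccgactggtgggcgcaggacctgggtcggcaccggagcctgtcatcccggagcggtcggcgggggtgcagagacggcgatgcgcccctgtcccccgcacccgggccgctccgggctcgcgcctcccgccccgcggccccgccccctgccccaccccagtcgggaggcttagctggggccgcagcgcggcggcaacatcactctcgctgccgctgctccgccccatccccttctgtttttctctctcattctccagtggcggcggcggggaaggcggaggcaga
KIF1B, chr1:10210320-10210619, plus strand, the first of 3 listed starts: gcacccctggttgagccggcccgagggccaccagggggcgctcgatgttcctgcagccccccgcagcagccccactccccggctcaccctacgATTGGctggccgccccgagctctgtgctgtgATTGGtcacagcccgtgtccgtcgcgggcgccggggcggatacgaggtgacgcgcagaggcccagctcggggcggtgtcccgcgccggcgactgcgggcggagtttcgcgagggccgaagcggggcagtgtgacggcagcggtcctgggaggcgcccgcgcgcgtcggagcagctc

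KIF4A had a CCAAT box 58 bases before the start and a CHR match 34 bases before it. KIF20A had CCAAT boxes 94 and 67 bases before the start and neither of the CHR spellings searched. Other spellings of the CHR were not searched in any window. KIF20B had CCAAT boxes 131 and 98 bases before the start and adjoining CHR matches from 25 bases after it. KIF3C held neither motif. KIF1B held CCAAT boxes at 157 and 126 bases before the first start, and a CCAAT box 121 bases before the third, which is not printed. For KIF20B and the first start of KIF1B, the bases just after the start were not found in a GENCODE 29 transcript of the gene. Positions given for these may therefore not refer to a start in use. They were found for KIF20A, KIF4A, KIF3C and the third start of KIF1B. Over the class, 10 of the 13 spindle kinesins (76.9%) had a CHR match, the exceptions being KIF20A, KIF2A and KIF2C, and 10 had a CCAAT box, the exceptions being KIF15, KIF2A and KIF2C. KIF4B, which was too low to test and is not among the motors that rose, counts as a match for both motifs. Of the 11 cargo transport kinesins with a window, KIF5B had CHR letters (9.09%) and 4 had a CCAAT box (36.4%). Among 27301 genes in the RefSeq table, 19.5% had a CHR match and 39.7% a CCAAT box in any of their windows, and 9.03% had both, as 9 spindle kinesins did. Both were also in KIF5B, of 11 cargo transport kinesins with a window, and in KIF24, of 6 cilium and other kinesins with a window. A forkhead core (GTAAACA) was in 0 of the 30 kinesins with a window and in 4.19% of genes, and E2F letters (TTTCCCGC, TTTCGCGC, TTTGCCGC or TTTGGCGC) were in KIF15 and KIF25 and in 3.99% of genes. No motif overlapped another in the printed windows, and a match is not shown to be a binding site. KIF5A, KIF13B, KIF21B, KIF26B and KIF27 had no window.

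Of the cargo transport motors, KIF1B, KIF5B and KIF13A rose. KIF1B, which carries mitochondria and synaptic vesicle precursors, had 12.3, 12.3 and 12.4 FPKM in siFOXD3, against 8.54, 7.35 and 7.48 FPKM in siNC. KIF5B, the ubiquitous heavy chain of kinesin-1, had 38.0, 37.3 and 35.4 FPKM in siFOXD3, against 22.6, 29.4 and 28.5 FPKM in siNC. Neither overlapped between the groups, and siNC replicate 1 was the lowest library for KIF5B. The log2 fold change was 0.61 ± 0.07 for KIF1B (SE, limma, adjusted p = 4.86e-05) and 0.45 ± 0.09 for KIF5B (SE, limma, adjusted p = 0.00117). Against a fold of 1.2, KIF5B was not called (limma, adjusted p = 0.0798). KIF13A, which carries endosomes, had 7.08, 6.43 and 7.06 FPKM in siFOXD3, against 5.43, 5.96 and 5.48 FPKM in siNC. This was a log2 fold change of 0.25 ± 0.08 (SE, limma, adjusted p = 0.02), and the call of KIF13A was lost without siFOXD3 replicate 1, siFOXD3 replicate 3 or siNC replicate 3 (limma, adjusted p = 0.0714, 0.0689 and 0.056) and against a fold of 1.2 (limma, adjusted p = 0.957).

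KIF3C and KIF13B fell. KIF3C, a kinesin-2 motor that can pair with KIF3A and is best known from neurons, had 11.6, 10.9 and 12.3 FPKM in siFOXD3, against 23.6, 22.9 and 20.7 FPKM in siNC, a ratio of means of 0.518. KIF13B, a kinesin-3 motor that carries signalling and polarity proteins, had 7.13, 6.82 and 6.97 FPKM in siFOXD3, against 8.76, 9.28 and 9.57 FPKM in siNC. The values of both lay apart between the groups. The log2 fold change was -0.89 ± 0.07 for KIF3C (SE, limma, adjusted p = 2.72e-06) and -0.36 ± 0.07 for KIF13B (SE, limma, adjusted p = 0.0014), and KIF13B was not called against a fold of 1.2 (limma, adjusted p = 0.258).

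The most abundant cargo motor, KIF1C, which carries vesicles and messenger RNA to cell protrusions, had 38.8, 39.2 and 38.3 FPKM in siFOXD3, against 41.8, 40.8 and 39.6 FPKM in siNC. The groups did not overlap, but the log2 fold change of KIF1C was -0.07 ± 0.05 (SE, limma, adjusted p = 0.237). KIF16B, a motor of early endosomes, averaged 4.46 ± 0.246 FPKM in siFOXD3 and 5.19 ± 0.375 FPKM in siNC, without overlap, with a log2 fold change of -0.18 ± 0.09 (SE, limma, adjusted p = 0.0906). KIF16B was called lower by limma without trend and robust (adjusted p = 0.0495). The heterotrimeric kinesin-2 of cilia and melanosomes is made of KIF3A, KIF3B and the adaptor KIFAP3, and none of the 3 passed the threshold. KIF3A averaged 4.11 ± 0.190 FPKM in siFOXD3 and 4.06 ± 0.936 FPKM in siNC. KIF3B averaged 15.9 ± 0.700 FPKM in siFOXD3 and 17.1 ± 0.644 FPKM in siNC, and KIFAP3, named after its values were seen, 10.2 ± 1.24 FPKM in siFOXD3 and 11.9 ± 0.387 FPKM in siNC. The log2 fold changes were 0.03 ± 0.13 for KIF3A, -0.10 ± 0.06 for KIF3B and -0.21 ± 0.09 for KIFAP3 (SE, limma, adjusted p = 0.84, 0.175 and 0.0508). KIFAP3 was called lower without siFOXD3 replicate 3 (-0.30, limma, adjusted p = 0.0104), without siNC replicate 1 (-0.23, limma, adjusted p = 0.0451), with a filter of 5 FPKM (limma, adjusted p = 0.0478) and with GC correction (-0.34, limma, adjusted p = 0.00349).

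The other 4 cargo transport motors, KIF17, KIF5C, KIF5A and KIF1A, stayed below the filter. KIF17, a dendritic and ciliary motor, had 0.442, 0.533 and 0.297 FPKM in siFOXD3, against 0.843, 0.614 and 0.930 FPKM in siNC. KIF5C, a neuronal heavy chain, had 0.0354, 0.0558 and 0.0353 FPKM in siFOXD3, against 0.152, 0.193 and 0.169 FPKM in siNC. Each of these was lower in every siFOXD3 library, and both were called lower when no filter was used (limma, adjusted p = 0.0259 for KIF17 and 0.0103 for KIF5C, where 50.1% of genes were called). KIF5A, the other neuronal heavy chain, was at 0.0250 to 0.0269 FPKM in siFOXD3 and at 0.0265 to 0.0813 FPKM in siNC. KIF1A, the axonal motor of synaptic vesicle precursors, had no entry in siFOXD3 and 0.0247 and 0.0122 FPKM in siNC replicates 1 and 2, where 3 fragments would be 0.0389 to 0.0419 FPKM.

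The cilium and other class moved in both directions. KIF21B, a motor that limits microtubule growth and is best known from neurons and lymphocytes, had 1.22, 1.17 and 1.48 FPKM in siFOXD3, against 4.38, 5.04 and 5.11 FPKM in siNC. This was a ratio of means of 0.266, the lowest among the kinesins tested, and a log2 fold change of -1.35 ± 0.10 (SE, limma, adjusted p = 2.02e-06), and KIF21B was the kinesin called lower by at least 1, where 5.97% of all genes were. Its close relative KIF21A, which acts at the cell cortex, had 4.76, 4.82 and 4.73 FPKM in siFOXD3, against 2.57, 3.06 and 3.23 FPKM in siNC. The log2 fold change of KIF21A was 0.55 ± 0.10 (SE, limma, adjusted p = 0.000521), so that KIF21A and KIF21B changed in opposite directions.

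KIF24, which holds back cilium growth at the mother centriole, had 2.92, 2.96 and 2.65 FPKM in siFOXD3, against 1.80, 1.53 and 1.204 FPKM in siNC. KIF9, a motor of motile cilia, had 3.77, 3.77 and 3.16 FPKM in siFOXD3, against 2.33, 2.77 and 2.13 FPKM in siNC. KIF27, a relative of the Hedgehog regulator KIF7 with a part in motile cilia, had 0.952, 0.808 and 0.876 FPKM in siFOXD3, against 1.13, 1.59 and 1.62 FPKM in siNC. The groups lay apart for each, with log2 fold changes of 0.62 ± 0.11, 0.42 ± 0.11 and -0.38 ± 0.12 in that order (SE, limma, largest adjusted p = 0.018). Against a fold of 1.2, neither KIF9 (limma, adjusted p = 0.209) nor KIF27 (limma, adjusted p = 0.387) was called. KIF27 passed the filter through siNC alone, so it had to be higher there. It was no longer called without siFOXD3 replicate 2 (limma, adjusted p = 0.0564) or with quantile normalization (-0.03, limma, adjusted p = 0.861), and no longer tested without any 1 of the siNC libraries.

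Markers of motile cilia (FOXJ1, DNAI1, DNAH5, RSPH1 and TEKT1) summed to 2.63 to 3.81 FPKM in siFOXD3 and 3.99 to 6.51 FPKM in siNC, most of it RSPH1, and their part in these values was not tested. The remaining members were below the filter. KIF7 was at 0.390 to 0.554 FPKM in siFOXD3 and 0.392 to 0.692 FPKM in siNC. KIF26A, a kinesin without ATPase activity, was at 0.136 to 0.251 FPKM in siFOXD3 and 0.260 to 0.454 FPKM in siNC, and its relative KIF26B at 0.0901 to 0.117 FPKM in siFOXD3 and 0.0830 to 0.177 FPKM in siNC. KIF25 was listed at 0.103 FPKM in siNC replicate 1 and in no other library, where 3 fragments would be 0.15 to 0.162 FPKM. The values of KIF7 and KIF26B overlapped between the groups and those of KIF26A did not, and KIF7, KIF25, KIF26A and KIF26B were not called when no filter was used (limma, smallest adjusted p = 0.0738).

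**Figure D4:**
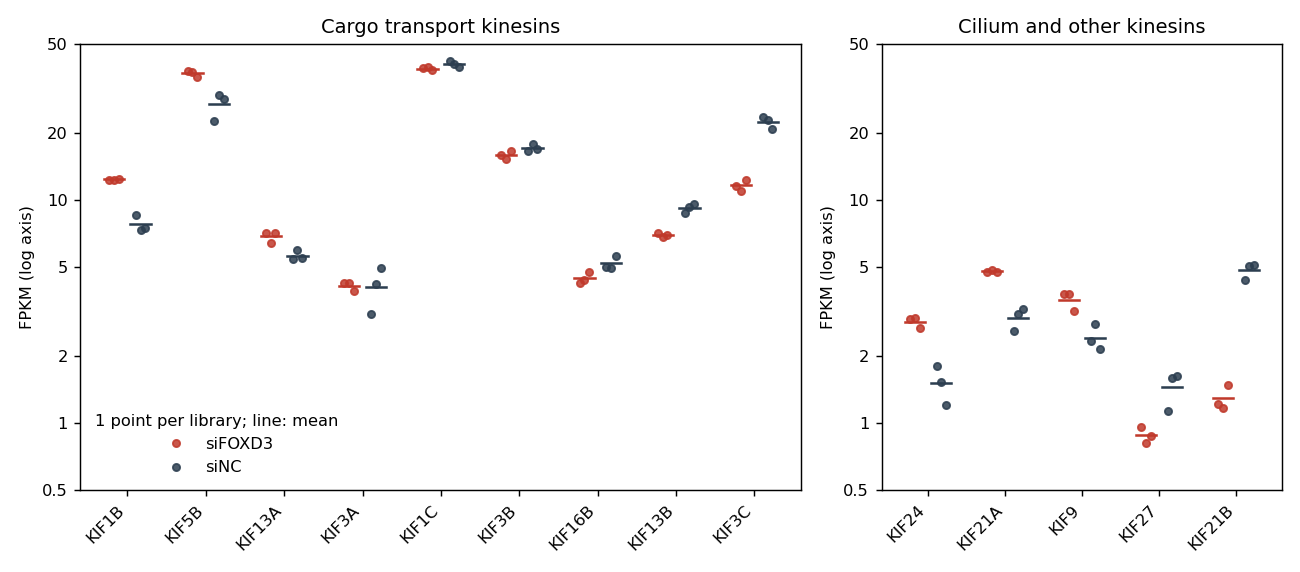
FPKM (log axis) of the 9 cargo transport and 5 cilium and other kinesins that passed the filter, with 1 point per library and the mean as a line, siFOXD3 left of siNC. KIF3C (10.9 to 12.3 FPKM in siFOXD3, 20.7 to 23.6 FPKM in siNC) and KIF21B (1.17 to 1.48 FPKM in siFOXD3, 4.38 to 5.11 FPKM in siNC) lie lower in siFOXD3, and KIF1C differs little at the highest level.

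Messages of genes whose products work with spindle kinesins or regulate their transcription mostly rose as well. Among 27 such partners and regulators, 23 rose, 1 fell and 3 missed the threshold, where 27.2% of all genes were called higher and 38.7% lower. Their median log2 fold change was 0.74. This list and those below were chosen with earlier results of these data known, so the counts are not independent of those results. MYBL2 (B-MYB), which drives transcription of G2/M genes, averaged 171 ± 3.23 FPKM in siFOXD3 and 67.7 ± 10.9 FPKM in siNC (SD, n = 3 each). CCNB1, the mitotic cyclin, averaged 162 ± 1.43 FPKM in siFOXD3 and 65.7 ± 2.67 FPKM in siNC. PLK1, the polo kinase that KIF20A binds, averaged 54.0 ± 1.85 FPKM in siFOXD3 and 21.6 ± 0.865 FPKM in siNC, and BIRC5 (survivin), of the chromosomal passenger complex, 59.0 ± 0.804 FPKM in siFOXD3 and 26.2 ± 3.79 FPKM in siNC. Named after their values were seen, LIN37, a MuvB subunit, fell by 0.58, and CIT, LIN52 and LIN54 were not called (0.08, 0.10 and 0.25). LIN52 (0.21) and LIN54 (0.34) were called higher with median-of-ratios scaling, and CIT (0.24), LIN52 (0.17) and LIN54 (0.51) with quantile normalization, and LIN54 (0.36) also without siNC replicate 3. CIT is the citron kinase that KIF14 holds at the midbody.

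Among motors and adaptors outside the KIF-and-digit symbols, more fell than rose. Of 19 tested of 20, 4 rose, 11 fell and 4 missed the threshold, where 27.2% of all genes were called higher and 38.7% lower, and their median was -0.27. With median-of-ratios scaling 5 were called higher and 9 lower, where 35.3% of all genes were called higher and 31.2% lower. CENPE, the kinetochore kinesin, averaged 8.53 ± 0.748 FPKM in siFOXD3 and 2.50 ± 0.534 FPKM in siNC, a log2 fold change of 1.45, and KTN1, the kinesin-binding protein kinectin, rose by 1.00. KIFC1, the minus-end-directed spindle motor, and KIDINS220, named after their values were seen, were the other rises at 0.62 and 0.39. The kinesin-1 cargo adaptors MAPK8IP1 and MAPK8IP2 (JIP1 and JIP2) fell by 1.02 and 1.00. MAPK8IP2, counted among the 11 falls, passed the filter through siNC alone, so its direction was fixed by the filter. The other falls, also named after their values were seen, included KIFC3 (-0.82) and KIFC2 (-0.60), opposite to KIFC1. The rest were KLC4 (-0.93), TRAK1 (-0.76), KLC3 (-0.54), MADD (-0.52), MAPK8IP3 (-0.42), RHOT1 (-0.27) and KLC1 (-0.14). KIFC1 stood on 3 rows, which were summed. Dynein, the motor that walks to the minus end, had members that moved either way: of 22 tested of 25 dynein and dynactin subunits and regulators, 8 rose, 6 fell and 8 missed the threshold, where 27.2% of all genes were called higher and 38.7% lower. In all, 14 of the 22 were called, near the share over all genes (65.9%), and their median was 0.03. Against a fold of 1.2, 1 was called higher and 2 lower, where 12.9% and 21.3% of all genes were. The split depended on the scaling, with 11 higher and 3 lower after median-of-ratios scaling and 10 higher and 6 lower after quantile normalization. Of all genes, 35.3% were called higher and 31.2% lower after median-of-ratios scaling. After quantile normalization these shares were 33.9% and 30.5%. ACTR1B of dynactin fell by 1.06, the light chain DYNLL1 rose by 0.80, DCTN2 fell by 0.55 and the adaptor BICD1 rose by 0.44.

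**Figure D5:**
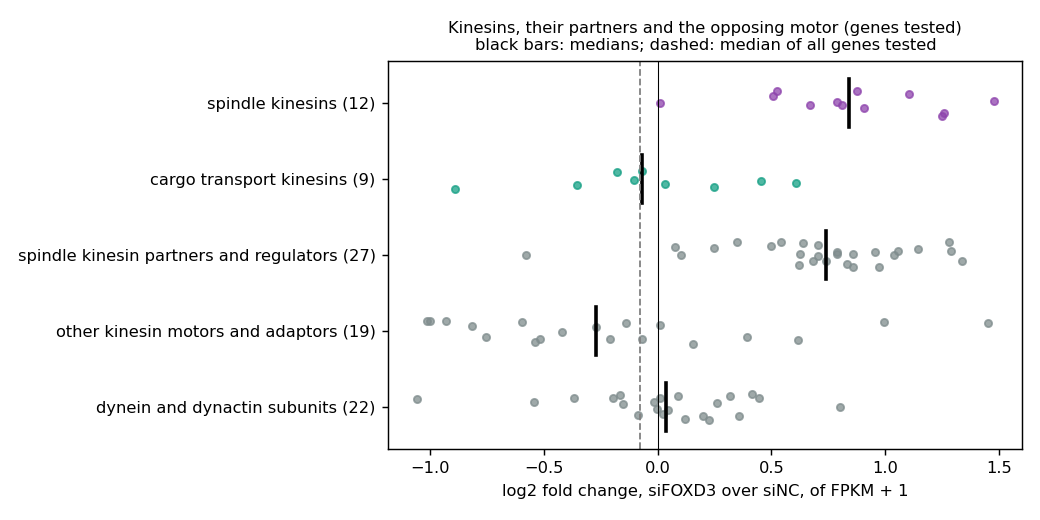
Log2 fold change of FPKM + 1, siFOXD3 over siNC, of spindle and cargo transport kinesins and of the 3 related gene lists, with 1 point per gene tested; black bars are medians and the dashed line is the median of all genes tested. Medians are 0.84 for spindle kinesins, -0.07 for cargo transport kinesins, 0.74 for spindle partners, -0.27 for other motors and adaptors and 0.03 for dynein and dynactin.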

How the data were processed

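Messenger RNA of 6 A549 libraries (3 siFOXD3, 3 siNC, grouped by sample title) was analysed from the authors' deposited FPKM values, the unit named per the file headers. TopHat, Cufflinks and genome build hg19 were used, per the submitters' processing notes; versions, annotation and strand handling are not stated in those notes, so reads of overlapping genes may be shared. Rows of a symbol were summed and absent symbols set to 0.

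Log2(FPKM + 1) was fitted with limma 3.58.1 in R 4.3.3 (trend and robust, group as the only term), two-sided, with Benjamini-Hochberg adjustment over the 12555 genes with at least 1 FPKM in at least 3 libraries. Fold changes on this scale understate those of low genes. Exact permutation of 3 against 3 libraries cannot go below p = 0.1, so it was not used. Depth was estimated from steps between low values, with a fragment length of 150 bases assumed. Libraries of 1 group differed by 1.41 to 3.16 times counting noise (median squared difference), and each was kept. GENCODE 29 supplied transcript GC content and RefSeq the promoters (30 of 35 members matched), on GRCh38, without converting coordinates. Classes and lists were chosen with earlier results of these data known. Every listed member is named; library values are given for tested spindle kinesins and for other members called or among the most abundant 3 of their class, with some others added after their values were seen. From each related list, up to 4 called genes with the largest change are named, and others where the text says so. The alternatives were 17 other fits and 4 other class memberships. Python 3.11.15, pandas 2.3.3, scipy 1.17.1 and matplotlib 3.10.9 were used.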

Additional observations from a re-analysis of the deposited data

How the results depend on the processing

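Each of the 11 spindle kinesins that rose kept its call in all 17 other fits, and the count was 10 when KIF4A and KIF4B were left out. The median log2 fold change of the spindle class was 0.900 and 0.649 with pseudocounts of 0.1 and 5, 0.951 with median-of-ratios scaling, 0.919 with quantile normalization, 0.769 with GC correction (also with the replicate block) and 0.801 to 0.889 leaving out 1 library. The cargo transport median was 0.045 with median-of-ratios scaling, 0.035 with quantile normalization, 0.088 without kinesin-2 motors and -0.117 to -0.060 leaving out 1 library. That of the cilium and other class was 0.548 and 0.209 with pseudocounts of 0.1 and 5, -0.047 with no filter, 0.687 with quantile normalization, 0.216 with KIF2A added, -0.035 with kinesin-2 added and 0.389 to 0.534 leaving out 1 library.

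With no filter, 4 cargo motors fell, where 50.1% of all genes were called in either direction. Against a fold of 1.2, 1 cargo motor rose and 1 fell, 1 of the cilium and other class fell, and 1 dynein and dynactin gene rose and 2 fell. Of all genes, 12.9% were called higher and 21.3% lower against that fold. The cilium and other class had 1 fall with quantile normalization or with KIF21A and KIF21B moved to cargo, and 1 to 2 leaving out 1 library. The cargo class had 1 fall without kinesin-2 motors. With median-of-ratios scaling 11 dynein and dynactin genes rose and 3 fell, where 35.3% of all genes were called higher and 31.2% lower. With quantile normalization these shares were 33.9% and 30.5%. At 5 FPKM no member of the cilium and other class was left to test. The ratio of spindle sums was 1.97 with median-of-ratios scaling and 1.93 without KIF2A. The ratio of cargo sums was 1.07 with median-of-ratios scaling, 1.02 with quantile normalization and 1.11 without kinesin-2 motors. The difference in spindle share was 14.6 percentage points, and 13.9 with quantile normalization and 14.2 with GC correction. It was 16.4 with KIF2A moved to the cilium and other class and 14.2 with KIF4A and KIF4B left out. Beyond what each setting leaves out or rescales, the cause was not tested.

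Replicates with the same number in both groups had deviations that correlated at r = 0.061, 0.163 and 0.115 across 12555 genes. Those with different numbers correlated at -0.119 to 0.026. The main fit did not take the numbers as pairs, although each library correlated best with its own number. With the replicate number as a block, 11 spindle kinesins rose, 3 cargo motors rose and 2 fell, as without it, and 5 dynein and dynactin genes fell in place of 6. Members under about 1 FPKM are limited by depth.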
